A study of Mus musculus with 18 samples.

Results

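The Zfp36 family of mRNA decay proteins was followed through 18 libraries of mouse urinary bladder. The 3 members are Zfp36, Zfp36l1 and Zfp36l2, of 26344 genes listed in all 12 droplet and section tables with mitochondrial genes left out. They were taken by name, with 3 contrasts named beside them: bulk intact tissue against dissociated bladder, dissociated cells against nuclei within a cell class, and tissue sections of 14 against 22 months. In those contrasts the values of the 3 genes are given as a description, with no test. Tests of the members are given for 2 other contrasts, age and the detrusor layer of the bladder wall. These share the whole-bladder cell libraries with the contrast against nuclei, and the members were chosen with earlier results known, so the tests are not fully independent of that choice. The fourth mouse member, Zfp36l3, had 0 counts in every droplet library and every section.

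All animals were C57BL/6 mice, an inbred strain, with no treatment or transgene named. Whole-bladder cell suspensions were 1 library of 3 males of 22 months, 1 of 3 males of 3 months, 2 of 12 months and 1 of 24 months, the last 3 each with 2 females and 2 males. A nuclear preparation of whole bladder came from 2 females and 2 males of 12 months. Detrusor cells came from 3 females of 14 months, and a detrusor-enriched whole-bladder suspension from 2 females and 2 males of 14 months. Frozen sections on a spatial array were 2 of males of 22 months and 2 of males of 14 months, each labelled with 4 males. Bulk libraries, made with polyA selection, were 3 of intact bladder and 3 of dissociated bladder from 12-month females, each labelled with 3 females. Each droplet library is thus a pool, and the labels do not say whether a section or a bulk library holds 1 animal or several. Nor do they say whether sections or bulk libraries of a group share animals. p-values therefore measure the spread between libraries, which may be partly technical.

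Bulk totals were 23083752 to 68760791 counts in intact and 24192299 to 28106085 in dissociated libraries. The median number of unique molecular identifiers (UMIs, 1 per captured transcript) per barcode was 1837 to 15042 in whole-bladder cells, 1126.5 in nuclei and 6959 to 7822.5 in detrusor cells. The 2 male cell libraries stood apart from the other droplet libraries: they had 14-base barcodes, 27775 listed genes, 0 mitochondrial UMIs and the lowest medians among the cells, 2524.5 and 1837. They shared 64 barcodes with each other, 1.0% of the smaller library. Sex, barcode format, gene listing and depth cannot be told apart between these 2 libraries and the 3 mixed-sex ones. The mixed-sex cell libraries listed 27998 genes, and the nuclei, both detrusor libraries and the sections 31053. Gene listing thus differed along with the nuclei and detrusor contrasts, and its part in them was not tested. Cells were placed in 14 classes by marker genes. In UMI counts per 1000000 UMIs (UMI CPM), the urothelial list of 10 markers stood at 14076 to 25066 UMI CPM in urothelial-like cells and the fibroblast list at 27289 to 58597 in fibroblast-like cells of whole bladder.

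Zfp36 (tristetraprolin), Zfp36l1 and Zfp36l2 are zinc finger proteins that bind AU-rich elements in the 3′ untranslated regions of short-lived mRNAs and bring in the machinery that removes the poly(A) tail, after which the message is degraded. Cytokine, growth factor and immediate-early transcripts are their best known targets. Zfp36 is itself an immediate-early gene, quickly transcribed in stimulated cells, and its protein is held inactive by p38 and MK2 phosphorylation with 14-3-3 binding, while Zfp36l1 and Zfp36l2 are known for roles in lymphocyte development and cell quiescence.

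In GRCm38.p6, the patched form of the mm10 build that the submitters' processing notes name, Zfp36 lies at chr7:28376784-28379228, Zfp36l1 at chr12:80107760-80113013 and Zfp36l2 at chr17:84183924-84187947. No other annotated gene overlapped any of the 3. The 250 bases before the start of Zfp36 (chr7:28379229-28379478, minus strand) and of Zfp36l1 (chr12:80113014-80113263, minus strand) are shown from RefSeq because the bulk difference described next was 29.5-fold for the first and 2.49-fold for the second. Capitals mark matches to 6 motifs searched on both strands: the TATA box TATAAA, an AP-1 site TGANTCA, a CRE TGACGTCA, an EGR site GCGNGGGCG, a STAT site TTCNNNGAA and the CArG box of serum response factor.
Zfp36 promoter: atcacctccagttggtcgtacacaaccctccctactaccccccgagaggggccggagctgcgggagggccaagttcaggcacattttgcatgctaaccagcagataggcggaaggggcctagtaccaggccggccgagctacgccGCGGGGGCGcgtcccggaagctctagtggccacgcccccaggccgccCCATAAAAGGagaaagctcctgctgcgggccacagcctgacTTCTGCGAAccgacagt
Zfp36l1 promoter: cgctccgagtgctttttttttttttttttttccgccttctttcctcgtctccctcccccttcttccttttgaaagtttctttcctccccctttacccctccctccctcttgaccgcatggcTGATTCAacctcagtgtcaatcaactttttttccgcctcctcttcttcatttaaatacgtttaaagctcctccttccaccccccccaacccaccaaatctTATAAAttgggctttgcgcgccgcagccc
The Zfp36 window held an EGR match at 105 to 97 bases, a CArG match at 58 to 49 bases and a STAT match at 17 to 9 bases before the start, with a GC content of 64.8%. The Zfp36l1 window held an AP-1 match at 129 to 123 bases and a TATA match at 29 to 24 bases, with a GC content of 48.4%. Of 32851 RefSeq promoter windows of 250 bases, 4.70% held the EGR letters, 1.47% a CArG box, 7.02% the STAT letters, 6.75% the AP-1 letters, 12.4% the TATA letters and 1.55% the CRE letters. The motifs may overlap one another, and a match describes letters, not a bound site. For Zfp36l2 no promoter sequence was used here.

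The bulk contrast asked how far a dissociated suspension differs from intact tissue. Zfp36 was far higher in dissociated bladder than in intact bladder, Zfp36l1 was higher to a lesser degree, and Zfp36l2 the least. In the 3 intact libraries Zfp36 stood at 42.9, 42.0 and 53.3 counts per 1000000 (CPM) scaled by the trimmed mean of M values (TMM), from 1019, 3012 and 1444 reads. In the 3 dissociated libraries it stood at 1653, 1215 and 1202, from 44501, 32241 and 27525 reads. The lowest dissociated library was thus far above the highest intact one, and the fitted difference was 4.88 on the log2 scale (standard error, SE, 0.18), or 29.5-fold, from a mean of 46.0 ± 6.27 (SD, n = 3) to 1357 ± 256 (SD, n = 3).

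Zfp36l1, which mouse embryos need to develop, stood at 144, 119 and 136 CPM in intact and 371, 316 and 302 CPM in dissociated libraries. Its log2 difference was 1.31 (SE 0.11), or 2.49-fold. Zfp36l2, known for its need in blood stem cells, stood at 110, 102 and 108 CPM in intact and 206, 220 and 191 CPM in dissociated libraries, a log2 difference of 0.95 (SE 0.08), or 1.93-fold. The 2 groups did not overlap for any of the 3 genes, as was the case for 67.2% of the 16538 genes tested. At an adjusted p under 0.05 (edgeR's quasi-likelihood test, Benjamini-Hochberg), 59.2% of these genes passed, 27.9% higher and 31.3% lower in dissociated bladder. Read counts in bulk depend on transcript length, so the 3 levels were not compared with each other there.

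**Figure D1:**
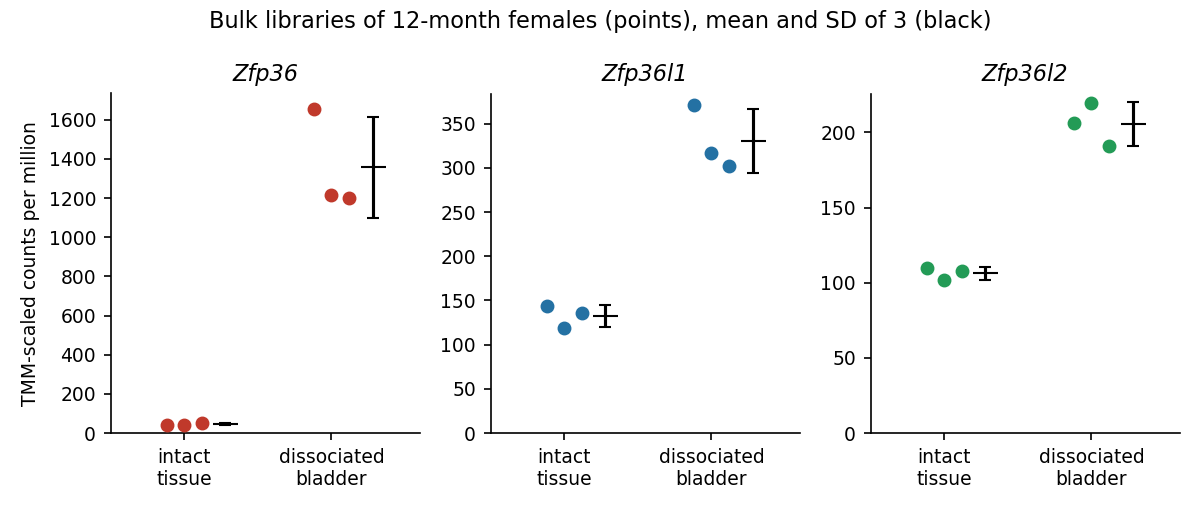
TMM-scaled CPM of each gene (linear axes from 0) in 3 intact and 3 dissociated bulk libraries (coloured points), with mean and SD of each group in black. Dissociated libraries lie above intact ones for all 3 genes, by 29.5-fold for Zfp36, 2.49-fold for Zfp36l1 and 1.93-fold for Zfp36l2.

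The cell makeup differed between the bulk groups as well. The 10 smooth muscle markers summed to 44090 to 46013 CPM in intact and 2433 to 3628 CPM in dissociated libraries, and all 10 fell. The 10 fibroblast markers summed to 13764 to 16791 CPM in intact and 24973 to 36484 CPM in dissociated libraries, the 10 macrophage or monocyte markers to 866 to 967 and 1109 to 1475 CPM, and the 10 urothelial markers to 6392 to 7418 and 4241 to 6175 CPM. None of the markers of these 4 lists was at 0. In bulk samples a change in cell numbers and a change in RNA per cell cannot be told apart, and the part of this makeup in the members' differences was not tested.

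Genes that act with the family moved in both directions in the same contrast. Of 10 regulators of p38 and MK2 signalling, 5 rose and 1 fell. Dusp1, the phosphatase that inactivates p38, rose by 5.13 on the log2 scale (SE 0.25), from a mean of 25.9 to 908 CPM, and Map2k3, a kinase that activates p38, by 1.57 (SE 0.12). Mapk14, which encodes p38 alpha, fell by 0.36 (SE 0.07). Of 7 14-3-3 genes 2 rose, Sfn by 1.61 (SE 0.22) and Ywhaz by 0.81 (SE 0.13), and none fell. The adjusted p values of these 5 genes lay between 5.14e-06 and 0.00366.

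The decay machinery moved in both directions. Of 13 genes of the CCR4-NOT and PAN2-PAN3 deadenylases, which shorten the poly(A) tail, 4 rose and 6 fell, among them the catalytic subunits Cnot6, which rose by 0.46 (SE 0.10), and Cnot8, which fell by 0.53 (SE 0.10). Of 11 decapping and 5′ decay genes 3 rose and 3 fell. Xrn1, the 5′ to 3′ exonuclease, rose by 0.65 (SE 0.13), and Lsm14b fell by 0.75 (SE 0.08). Of 12 exosome genes 6 fell and none rose, led by Exosc4, which fell by 1.26 (SE 0.11). Of 6 translation repression partners 1 rose (the poly(A) binding protein gene Pabpc1, by 0.46, SE 0.09) and 3 fell. The median log2 difference of each of these 4 lists lay between −0.21 and −0.01, beside −0.03 over all genes tested.

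Most other regulators of mRNA decay and most known targets rose in the same contrast. Of 10 tested decay regulators outside the family 8 rose and none fell, with a median of 1.56. Btg2, which stimulates deadenylation, rose by 3.36 (SE 0.13) and Tob2 by 2.38 (SE 0.09). Of 24 tested AU-rich transcripts known as targets, 20 rose and 1 fell, with a median of 3.23. Il6, an inflammatory cytokine, had 5 reads over the 3 intact libraries and 13872 over the 3 dissociated ones, and Cxcl1, a neutrophil attractant, 15 and 5094. Ccnd1, a cell cycle gene, fell by 0.72 (SE 0.14). The 25 target genes together summed to 814 to 862 CPM in intact and 5435 to 6404 CPM in dissociated libraries. Of 9 other AU-rich element binding proteins 1 rose and 4 fell. These counts stand beside 27.9% of all genes called higher and 31.3% called lower. The share called higher was above the first for the targets, the other regulators and the p38 and MK2 regulators, and close to it for the 14-3-3, deadenylase and decapping genes. The share called lower was above the second for the exosome, deadenylase, translation partner and other AU-rich element binding lists. No list was tested against other genes.

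In suspensions of whole bladder the 3 genes differed in how they spread over cell types. UMI counts do not grow with transcript length as read counts do. Whether the 3 genes are captured alike in each kind of library was not tested, so their levels in a class are only set side by side. They are given as UMI CPM over the summed cells of a class of a library with at least 50 such cells. Zfp36 was the highest of the 3 in fibroblast-like cells, at 1173 in the 22-month males, 1373 in the 3-month males, 1082 and 1176 in the 12-month libraries and 1087 in the 24-month library, a mean of 1178 ± 118 (SD, n = 5). In urothelial-like cells it stood at 502, 360, 247, 315 and 276 in the same order, a mean of 340 ± 100 (SD, n = 5).

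Zfp36 was also high in macrophage- or monocyte-like, pericyte-like and blood endothelial-like cells, and in dendritic-like cells of the male libraries. Dendritic-like cells held 1242 and 1382 in the 22- and 3-month males, and 566 and 549 in the first 12-month and the 24-month library, where they stood below fibroblast-like cells. Macrophage- or monocyte-like cells held 1675 and 1620 in the 22- and 3-month male libraries but 542, 583 and 963 in the mixed-sex ones, so that this class stood above fibroblast-like cells in the 2 male libraries and below them in the other 3. The 12-month values rest on 51 and 67 cells, and with finer clustering (Leiden resolution 2) the class held 38 and 17, under the minimum of 50. Pericyte-like cells reached 2491 in the 22-month males, the highest value in any class, and blood endothelial-like cells 1468 and 2078 in the 22- and 3-month males. The lowest values in cells of whole bladder were 133 in plasma-like cells of a 12-month library, 244 in T or NK-like cells of the 3-month males and 245 in mesothelial-like cells of the 22-month males. Neighbours in this order rest on 1 or 2 libraries and were not separated.

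Zfp36l1 was highest in fibroblast-like and pericyte-like cells. Its fibroblast-like level was 554, 761, 731, 924 and 717 (22-month males, 3-month males, 12 months, 12 months, 24 months), a mean of 738 ± 132 (SD, n = 5). Its urothelial-like level was 203, 269, 207, 134 and 208, a mean of 204 ± 47.7 (SD, n = 5), and its macrophage- or monocyte-like level averaged 279 ± 75.1 (SD, n = 5). Fibroblast-like cells had the highest Zfp36l1 level of all classes in 4 of the 5 whole-bladder libraries and the second highest, after pericyte-like cells at 687, in the 22-month males. The urothelial-like and macrophage- or monocyte-like ranges overlapped.

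Zfp36l2 was the lowest of the 3 in fibroblast-like and urothelial-like cells of every whole-bladder cell library, and its level moved with the kind of library. In fibroblast-like cells it stood at 10.0 and 29.2 in the male libraries and 94.4, 181 and 130 in the mixed-sex ones, and in urothelial-like cells at 10.9 and 28.5 against 51.2, 44.9 and 59.7. T or NK-like cells were its highest class where they were numerous enough, at 132 in the 22-month males and 366 in the 3-month males, and at 1284 and 1241 in the detrusor-enriched and detrusor-only libraries. There Zfp36l2 exceeded Zfp36, at 278 and 77.6, and Zfp36l1, at 604 and 543.

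**Figure D2:**
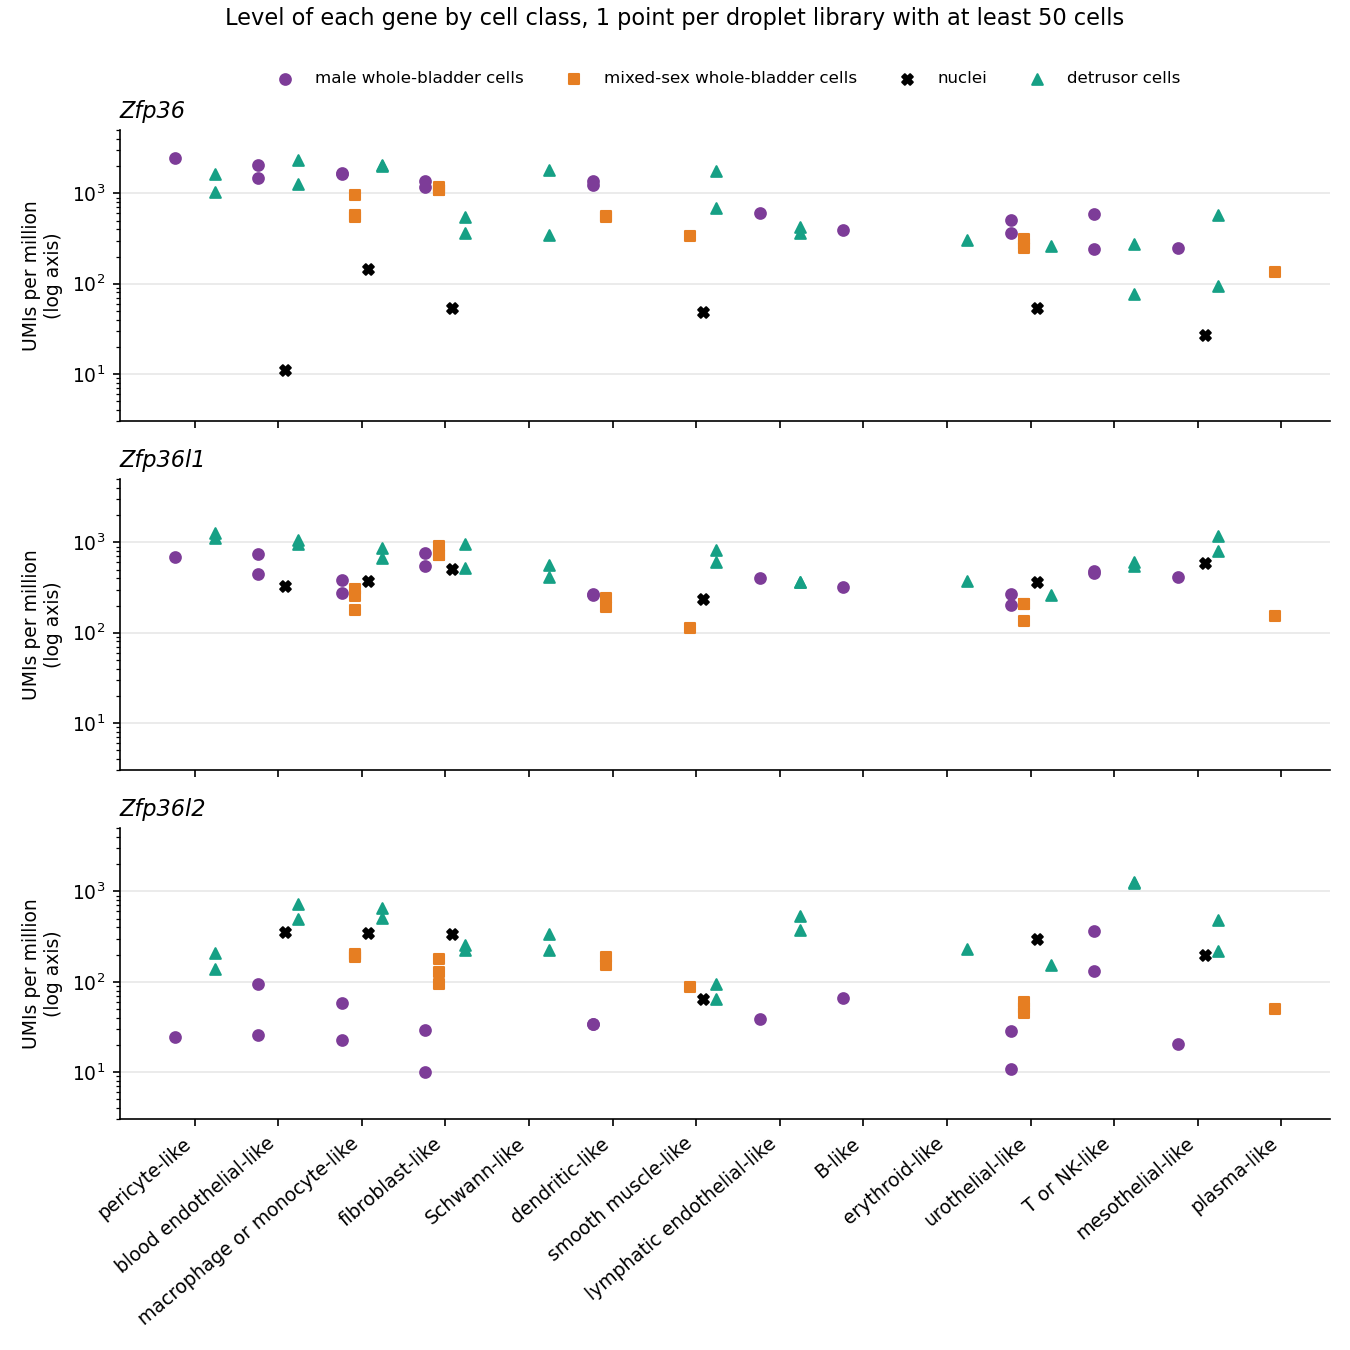
UMI CPM (log axis) of each gene by cell class, 1 point per droplet library with at least 50 cells of the class; colours and shapes give the kind of library. Zfp36 in nuclei (crosses) lies at 11.0 to 147, below every cell library of the same class, while Zfp36l2 is lowest in the male cell libraries and reaches 1284 in T or NK-like cells. Some nuclear values rest on few UMIs. Zfp36 took 1.59% of 63 UMIs of the 3 genes in blood endothelial-like nuclei. It took 3.30% of 91 in mesothelial-like and 16.9% of 65 in macrophage- or monocyte-like nuclei.

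The share of cells with at least 1 UMI gave the same order. For it, cells with at least 1000 UMIs were thinned to 1000, and cells with fewer were left out. In fibroblast-like cells 54.5% ± 3.02 (SD, n = 5 libraries) held Zfp36, 44.6% ± 4.86 held Zfp36l1 and 7.27% ± 5.08 held Zfp36l2. In urothelial-like cells the shares were 23.7% ± 6.45, 16.9% ± 2.85 and 3.68% ± 2.02. Without thinning and with no cell left out the order was the same. The shares were then higher, at 81.5%, 77.7% and 25.9% in fibroblast-like and 73.7%, 68.0% and 28.4% in urothelial-like cells. A deeper cell is more likely to show a UMI. Free RNA in droplets also adds UMIs, and the share in a cell type that lacks these genes was not measured.

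The nuclear preparation was set beside whole dissociated cells of the same class. Nuclei and whole cells differ in the part of the cell sampled as well as in handling, and the design cannot tell these apart. Zfp36 was far lower in nuclei than in cells of the same class, Zfp36l1 differed little from the median gene in urothelial-like nuclei and was lower in fibroblast-like nuclei, and Zfp36l2 took a larger part of the family. In urothelial-like nuclei Zfp36 stood at 53.8 UMI CPM, from 122 UMIs, below all 5 cell libraries at 247 to 502. In fibroblast-like nuclei it stood at 53.6, from 23 UMIs, below all 5 at 1082 to 1373. With TMM scaling the log2 differences were −3.80 (SE 0.38), or 13.9-fold lower, and −5.35 (SE 0.51), or 40.8-fold lower. There is 1 nuclear library, assumed in the fit to vary like the cell libraries.

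Zfp36l2 went the other way. It stood at 298 UMI CPM in urothelial-like nuclei against 10.9 to 59.7 in cells, and at 340 in fibroblast-like nuclei against 10.0 to 181 in cells, above every cell library in each class. After TMM scaling the fibroblast-like nuclei, at 203, lay inside the range of the cells, 10.0 to 223, and the log2 differences were 1.61 (SE 0.88) and 0.97 (SE 1.40). The male cell libraries lay far below the mixed-sex ones, as described above. Against the 3 mixed-sex cell libraries alone the differences were 1.09 and 0.55. The nuclear library listed 31053 genes, against 27775 or 27998 in the cell libraries. Preparation and gene listing therefore cannot be told apart.

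Zfp36l1 stood at 365 in urothelial-like nuclei, above the cells at 134 to 269, and at 512 in fibroblast-like nuclei, below the cells at 554 to 924. Its log2 differences under TMM scaling were −0.32 (SE 0.32) and −1.44 (SE 0.49). By library size alone the urothelial-like difference was 0.84, of opposite sign, and the median over all genes moved with it, from −0.03 to 1.12. Relative to that median Zfp36l1 differed by −0.29 under TMM and −0.28 by library size, Zfp36 by −3.77 and −3.78, and Zfp36l2 by 1.64 and 1.81. In the fibroblast-like class the median moved from −0.31 to 0.56, and relative to it Zfp36 differed by −5.04 and −5.02, Zfp36l1 by −1.13 and −1.08, and Zfp36l2 by 1.28 and 1.40.

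In the urothelial-like fit 35.2% of 13258 genes passed the test, 16.1% higher and 19.2% lower in nuclei, and groups did not overlap for 73.3% of them. By library size alone 5520 genes passed and 89.6% of them were higher in nuclei, against 45.6% of 4669 under TMM. In the fibroblast-like fit 23.7% of 12444 genes passed, 8.23% higher and 15.5% lower, with no overlap for 70.4%. Of its called genes 34.7% were higher under TMM, 46.9% with relative log expression scaling and 85.2% by library size.

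Smooth muscle RNA was higher in the sums of nuclei. The 10 smooth muscle markers summed to 5222 UMI CPM in urothelial-like nuclei against 11.4 to 222 in urothelial-like cells, and to 13140 in fibroblast-like nuclei against 396 to 3542 in fibroblast-like cells. The urothelial list stood at 8493 in urothelial-like nuclei and the fibroblast list at 17791 in fibroblast-like nuclei, both below every cell library. The urothelial list in fibroblast-like nuclei, at 1709, lay inside the range of the cells, 474 to 1810, and so did the fibroblast list in urothelial-like nuclei, at 638 beside 85.2 to 2909. Smooth muscle-like nuclei held Zfp36 at 48.5, Zfp36l1 at 236 and Zfp36l2 at 65.0. The part of this RNA in the members' differences was not tested. Whether intronic reads were counted in nuclei is not given in the sources used here.

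The makeup of the family differed between cells and nuclei. Of all UMIs of the 3 genes, Zfp36 took 48.9% to 70.2% in urothelial-like cells of whole bladder and 7.51% in urothelial-like nuclei. In fibroblast-like cells it took 51.6% to 67.5%, and in nuclei 5.91%. Zfp36l2 took 1.52% to 11.0% in urothelial-like cells and 41.6% in nuclei, and 0.573% to 7.93% in fibroblast-like cells and 37.5% in nuclei. After thinning to 1000 UMIs, 5.46% of urothelial-like nuclei held a Zfp36 UMI (exact binomial 95% interval 4.01% to 7.24%, counting error only) and 24.2% a Zfp36l2 UMI (21.3% to 27.2%). In fibroblast-like nuclei the shares were 4.19% (1.93% to 7.80%) and 27.4% (21.6% to 33.9%). The nuclei kept after thinning were 824 of 1218 and 215 of 407.

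**Figure D3:**
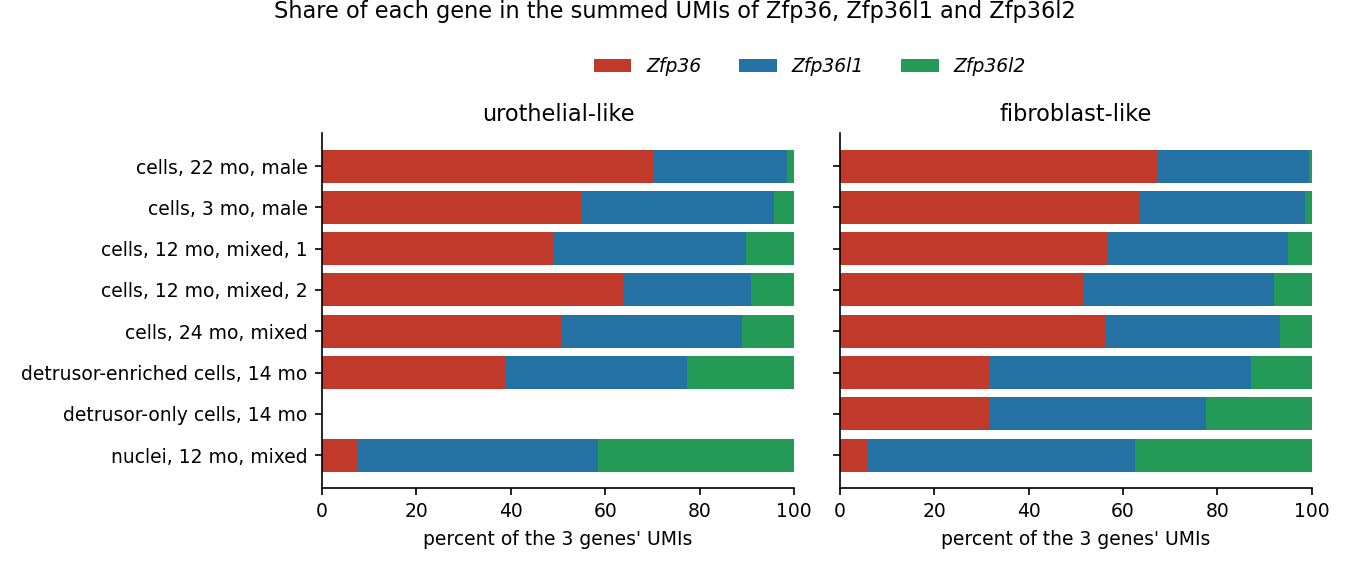
Percent of the summed UMIs of the 3 genes that each gene took, in urothelial-like (left) and fibroblast-like (right) cells or nuclei of each droplet library; the detrusor-only library has no urothelial-like class. The Zfp36 share is 48.9% or more in all whole-bladder cell libraries and 7.51% and 5.91% in nuclei.

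The target and regulator lists were mixed between nuclei and cells. Of 22 tested AU-rich targets 6 fell and 2 rose in urothelial-like nuclei, with a median of −2.01, and of 21 tested 5 fell and 1 rose in fibroblast-like nuclei, with a median of −3.36. Fos, an immediate-early transcription factor, fell by 5.93 (SE 0.55) and 7.49 (SE 0.64) in the 2 classes, and Il1b had 0 UMIs in both nuclear sums. Bcl2, an inhibitor of cell death, rose by 1.77 (SE 0.28) and 1.84 (SE 0.42). Dusp1 fell by 5.87 (SE 0.89) and 4.53 (SE 0.55), one of 4 of 10 p38 and MK2 regulators that fell in urothelial-like and 3 of 10 in fibroblast-like nuclei. Of 7 14-3-3 genes 4 fell in urothelial-like and 3 in fibroblast-like nuclei, but 1 and 0 by library size alone. All of these counts were made under TMM scaling, beside the shares of all genes given above.

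Deadenylase genes were called higher in nuclei in both classes, 5 of 12 in urothelial-like and 6 of 12 in fibroblast-like nuclei, and none was called lower, beside 16.1% and 8.23% of all genes called higher and 19.2% and 15.5% called lower. By library size alone, where most called genes were higher in nuclei, 8 and 7 of the 12 were called higher. Pan2, a catalytic deadenylase subunit, rose by 2.25 (SE 0.25) and 2.46 (SE 0.45), and Pan3, its partner, by 1.77 (SE 0.45) and 2.43 (SE 0.74). Xrn1 rose by 2.16 (SE 0.36) and 2.15 (SE 0.42). Lsm1, of the ring that promotes decapping, fell by 2.52 (SE 0.31) and 1.95 (SE 0.55), and Ybx1, an abundant mRNA binding protein, by 3.13 (SE 0.32) and 2.93 (SE 0.45). Btg2 fell by 3.16 (SE 0.41) and 5.11 (SE 0.74). By library size alone the call of Lsm1 was lost in both classes (adjusted p = 0.0928 and 0.261 in edgeR). In fibroblast-like nuclei it was also lost with relative log expression scaling (0.0594) and without the 22-month males (0.0647), the first 12-month library (0.0708) or the 24-month library (0.0553). The call of Pan3 in fibroblast-like nuclei was lost without the 22-month males or any 1 mixed-sex library, with no filter on low counts (0.0508) and at 1000 UMIs per cell (0.0506). The adjusted p values of Fos, Bcl2, Dusp1, Pan2, Pan3, Xrn1, Lsm1, Ybx1 and Btg2 lay between 0.00159 and 0.0482 in edgeR. The nuclear preparation had no replicate, so these p values rest on the spread between cell libraries and compare 1 nuclear library with them.

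The detrusor contrast compared fibroblast-like cells of the detrusor-only and detrusor-enriched libraries with those of the whole bladder. The enriched library was a whole-bladder suspension with 1529 urothelial-like cells of 5121, so 1 library is of detrusor alone. Its whole-bladder libraries are those used for the nuclei. Zfp36 fell there, and Zfp36l1 and Zfp36l2 did not pass the test. Zfp36 stood at 360 UMI CPM in the detrusor-only and 554 in the detrusor-enriched library, both below the whole-bladder libraries at 1082 to 1373. The urothelial list in the same fibroblast-like sums stood at 1.62 and 294 UMI CPM in these libraries and at 474 to 1810 in the whole-bladder ones, and its part in the difference was not tested. The log2 difference of Zfp36 was −1.36 (SE 0.27, adjusted p = 0.034, edgeR quasi-likelihood), or 2.57-fold lower, lower in 2 of 2 detrusor libraries. In this contrast 5.5% of 12462 genes passed, 3.82% higher and 1.68% lower, and groups did not overlap for 36.1%.

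The Zfp36 call did not hold when any 1 of the 7 libraries was left out, with log2 differences of −1.53 to −1.17 and adjusted p values of 0.0503 to 0.27. Against the 3 mixed-sex libraries alone it was −1.43 (adjusted p = 0.012). Zfp36l1 stood at 518 and 968 in detrusor and 554 to 924 in whole-bladder libraries, with a log2 difference of −0.02 (SE 0.34, adjusted p = 0.97). Zfp36l2 stood at 253 and 227, above all whole-bladder values of 10.0 to 181, with 1.39 (SE 0.97, adjusted p = 0.36). In both detrusor libraries Zfp36 took 31.8% and 31.7% of the family's UMIs in fibroblast-like cells, less than in any whole-bladder library. The detrusor libraries were from 14-month animals, an age with no whole-bladder cell library, and listed 31053 genes against 27775 or 27998. The detrusor-only library was of 3 females, and no whole-bladder cell library was of females alone. Age, gene listing and layer, with sex for the detrusor-only library, cannot be told apart.

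Zfp36 was not low in every class of the detrusor libraries. Macrophage- or monocyte-like cells stood at 2045 and 1999 in the detrusor-only and detrusor-enriched libraries, above all 5 whole-bladder values of 542 to 1675. No dendritic-like class was named in these detrusor libraries, while 4 of the 5 whole-bladder libraries had one, so the class may be composed differently. Blood endothelial-like cells stood at 1273 and 2318 beside 1468 and 2078. Smooth muscle-like cells stood at 683 and 1755. Zfp36l1 reached 1114 and 1262 in pericyte-like cells and 1187 and 807 in mesothelial-like cells of the same libraries. The Zfp36 share of the family's UMIs, which also depends on the other 2 genes, was lower in some classes. It was 45.03% and 52.57% in these pericyte-like cells, beside 77.79% in the 22-month males. In mesothelial-like cells it was 25.5% and 8.36%, beside 36% in those males. In urothelial-like cells of the enriched library it was 38.74%, below all 5 whole-bladder libraries. Macrophage- or monocyte-like shares, 57.29% and 62.93%, lay inside the whole-bladder range. These levels and shares were not tested.

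Over the 9 lists of partners and targets, 7 genes passed in the detrusor contrast, 4 higher and 3 lower, where 5.5% of all genes passed. Cnot3 (1.01, SE 0.22) and Cnot6l (1.25, SE 0.25) rose among 12 deadenylase genes, Xrn1 rose by 1.35 (SE 0.31) and Ttc37, of the exosome-associated Ski complex, by 2.52 (SE 0.40). Ywhah fell by 1.15 (SE 0.25), Elavl1, which encodes the mRNA-stabilising protein HuR, by 0.97 (SE 0.23), and Il1b by 2.70 (SE 0.44), the 1 of 21 tested targets that passed. Their adjusted p values lay between 0.018 and 0.0494 (edgeR quasi-likelihood). All 7 calls were lost without the detrusor-only library, and only those of Ttc37 and Il1b held without each of the other libraries. Of 9 p38 and MK2 regulators, 6 translation partners and 10 other decay regulators none passed.

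Age gave no call for any member. Animals of 22 and 24 months were compared with those of 3, 12 and 12 months, with a term for male against mixed-sex pools. In urothelial-like cells the TMM-scaled Zfp36 levels were 394 and 320 CPM in the older and 262, 286 and 380 CPM in the younger libraries, and the groups overlapped. Groups did not overlap for 8.54% of the genes tested in this class. The log2 difference was 0.22 (SE 0.21), and for Zfp36l1 and Zfp36l2 it was 0.03 (SE 0.21) and −0.21 (SE 0.32). In fibroblast-like cells Zfp36 stood at 1020 and 1143 CPM in the older and 1156, 1153 and 1326 CPM in the younger libraries. Its difference was −0.14 (SE 0.19), with −0.33 (SE 0.21) for Zfp36l1 and −0.67 (SE 0.42) for Zfp36l2. All 6 adjusted p values were 1.00 when rounded (edgeR quasi-likelihood).

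On the TMM scale the 2 older and 3 younger fibroblast-like values of Zfp36 did not overlap, while the UMI CPM values did, at 1173 and 1087 against 1373, 1082 and 1176. TMM values did not overlap for 7.38% of all 11670 genes tested, of which 2 passed the test (0.0171%). In urothelial-like cells none of 12615 passed in edgeR, with 362 at an unadjusted p under 0.05, and none in DESeq2. A test of whether the age difference of Zfp36 differed between fibroblast-like and urothelial-like cells gave −0.39 (SE 0.18, adjusted p = 1 in edgeR's quasi-likelihood fit). Without the 24-month library, the Zfp36l2 difference in fibroblast-like cells was −1.47 with an adjusted p of 0.0577, the lowest among the members in these fits. With 22 months only in males and 24 months only in a mixed pool, the estimates rest on 1 library each.

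In the sections Zfp36 and Zfp36l1 were lower at 22 months, and the Zfp36l2 values of the 2 ages overlapped. Zfp36 stood at 132 and 120 TMM-scaled CPM in the 14-month sections and 47.9 and 38.4 CPM in the 22-month sections, a log2 difference of −1.55 (SE 0.13), or 2.92-fold lower. Zfp36l1 stood at 326 and 300 CPM at 14 months and 207 and 218 CPM at 22 months, −0.56 (SE 0.09). Zfp36l2 stood at 157 and 139 CPM at 14 months and 147 and 139 CPM at 22 months, −0.05 (SE 0.09). The groups did not overlap for Zfp36 and Zfp36l1, as for 51.6% of 14995 genes tested, and overlapped for Zfp36l2. None of the 14995 genes passed the test in edgeR, with 2488 at an unadjusted p under 0.05, and 420 passed in DESeq2. None of the 9 gene lists had a member called in edgeR.

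In cells the values by age were mixed. In UMI CPM the 22-month male cell library stood above the 3-month male one for Zfp36 in urothelial-like cells (502 against 360) and below it in fibroblast-like cells (1173 against 1373), with 1 library each. Among mixed-sex pools, also in UMI CPM, the 24-month library stood at 276 beside 247 and 315 at 12 months in urothelial-like and at 1087 beside 1082 and 1176 in fibroblast-like cells, while on the TMM scale its fibroblast-like value was below both, as given above. Sections and cell libraries differ in animals, ages and method, and no test joined them. The summed urothelial list did not overlap between the ages of the sections. It stood at 13623 and 12952 UMI CPM at 14 months and 14151 and 14824 at 22 months. The smooth muscle list overlapped, at 28365 and 20197 against 25909 and 26524, and so did the fibroblast list, at 4812 and 6988 against 4819 and 5470. The part of this makeup in the members' section differences was not tested.

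Within the sections Zfp36 was highest in a region rich in urothelial markers at both ages, with the highest urothelial list in the second section of each age and the second highest in the first. A high urothelial list did not go with high Zfp36 in every region. In the first sections the region with the highest urothelial list held 56.9 UMI CPM of Zfp36 at 14 months, in 83 spots, and 47.9 at 22 months, in 70 spots. Spots were grouped into regions by their genes, 9 to 12 per section. In the first 14-month section Zfp36 ran from 53.0 to 270 UMI CPM. It was highest in a region of 31 spots led by Atf3, Ttr and Krt23, followed by 241 in 70 spots led by Plk2, Spon1 and Car3 and 182 in a region of 168 spots led by Fabp3, Mmp12 and Rgs2 with a smooth muscle list of 52320. In the second 14-month section Zfp36 was highest, at 231, in 97 spots led by Fabp4, Krt20 and Tspan6, where the urothelial list was also highest, and stood at only 39.7 to 54.0 in all 6 regions with the highest smooth muscle lists. In the 22-month sections regions ran from 23.5 to 90.5 and from 20.5 to 49.2, so that these 6 regions lay inside the range of the first of them. In the first 22-month section the highest region, 65 spots, was led by Fos, B430010I23Rik and Arg2, and in the second it was 88 spots led by Fabp4, Cldn8 and Krt20.

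Zfp36l1 was spread differently. It was lowest in the region with the highest urothelial list in 3 of the 4 sections, at 201, 272 and 184, and in the 11th of 12 places, at 174, in the remaining one, the first 22-month section. The highest regions for Zfp36l1 reached 469 and 382 at 14 months and 303 and 255 at 22 months. Zfp36l2 was lowest or close to it in the region with the highest smooth muscle list: 120 and 110 at 14 months, in places 11 of 11 and 8 of 10, and 89.6 and 96.7 at 22 months, in places 11 of 12 and 9 of 9. A spot can hold several cells, so these are regions and not cell types.

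**Figure D4:**
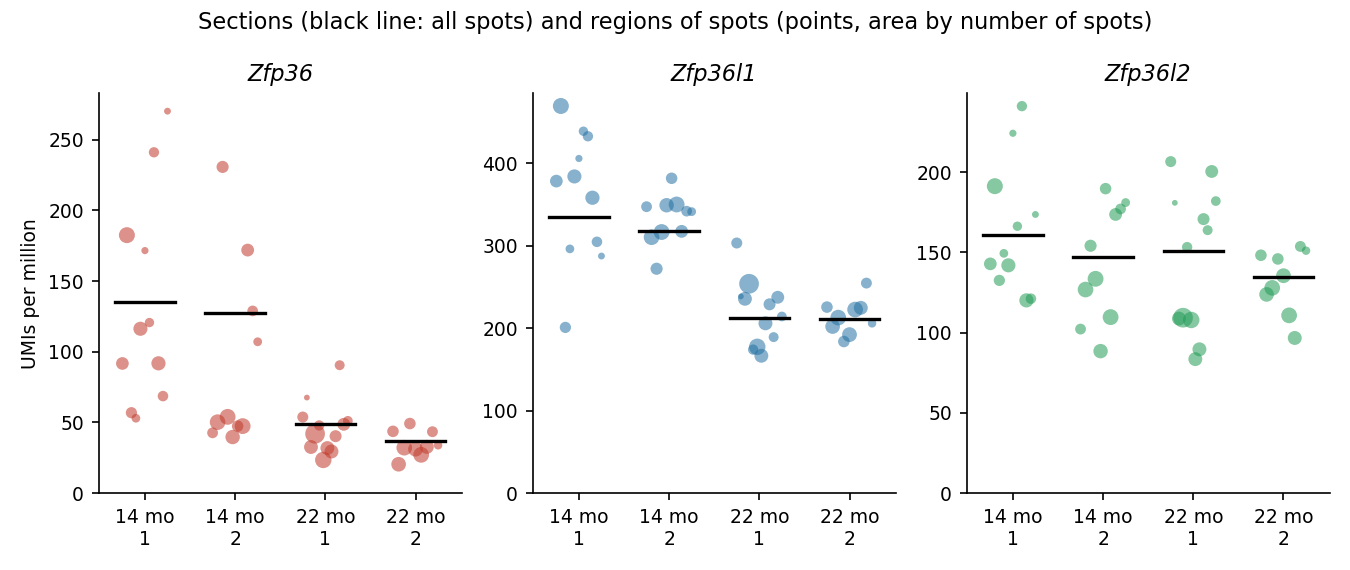
UMI CPM of each gene (linear axes from 0) in the 2 sections of 14 months and the 2 of 22 months: the black line is the whole section, each point a region of spots with its area by number of spots. Most Zfp36 points of the second 14-month section lie at 39.7 to 54.0, with 4 regions above 100, the highest at 231.

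The genes most like each member over 51 sums of 13 classes in 8 droplet libraries were listed by the correlation of log2(CPM + 1), among 6778 genes. The sums share libraries and depth, so the values are descriptive. Zfp36 was most like Fos (r = 0.886), Socs3 (0.867), Junb (0.843), Ppp1r15a (0.841) and Ier2 (0.837). Zfp36l1 was most like Ddit3 (0.770), Tmem65 (0.768), Nfic (0.748), Irf1 (0.736) and Klf9 (0.735), and Zfp36l2 most like Gxylt1 (0.827), Rapgef6 (0.825), and Akap13 (0.810), followed by Jak1 and Dennd4a. Between members r was 0.335 for Zfp36 and Zfp36l1, 0.381 for Zfp36l1 and Zfp36l2 and −0.174 for Zfp36 and Zfp36l2.

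The genes like Zfp36 also had large differences in the bulk libraries, where 27.9% of all genes tested were called higher in dissociated bladder. The bulk libraries had no part in that list, but the nuclei did, and Zfp36 was far lower in them. Both contrasts were named with the members, so the bulk differences are a description and not separate support. Fos rose by 7.02 (SE 0.41) on the log2 scale, Socs3 by 6.26 (SE 0.26), Junb by 4.77 (SE 0.14), Ppp1r15a by 4.48 (SE 0.13) and Ier2 by 3.45 (SE 0.16). Among the genes like Zfp36l1, Irf1 rose by 2.62 (SE 0.18), Klf9 by 1.36 (SE 0.10), Tmem65 by 0.70 (SE 0.08) and Ddit3 by 0.47 (SE 0.09), while Nfic fell by 0.42 (SE 0.14). The 5 genes like Zfp36l2 rose by 0.69 (SE 0.19) for Akap13 to 1.84 (SE 0.22) for Dennd4a. In the sections Fos, Socs3, Junb, Ppp1r15a and Ier2 had log2 differences of −3.62, −1.26, −1.47, −0.69 and −1.51 between 22 and 14 months, in a contrast where none of all 14995 genes passed the test in edgeR. The section contrast was also named with the members, so these values too are a description and not separate support. Of the promoters of these 5, Fos held the TATA letters, Socs3 the EGR and STAT letters and Ppp1r15a the CRE letters. Junb held none of the 6 motifs, and for Ier2 no sequence was used here.

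**Figure D5:**
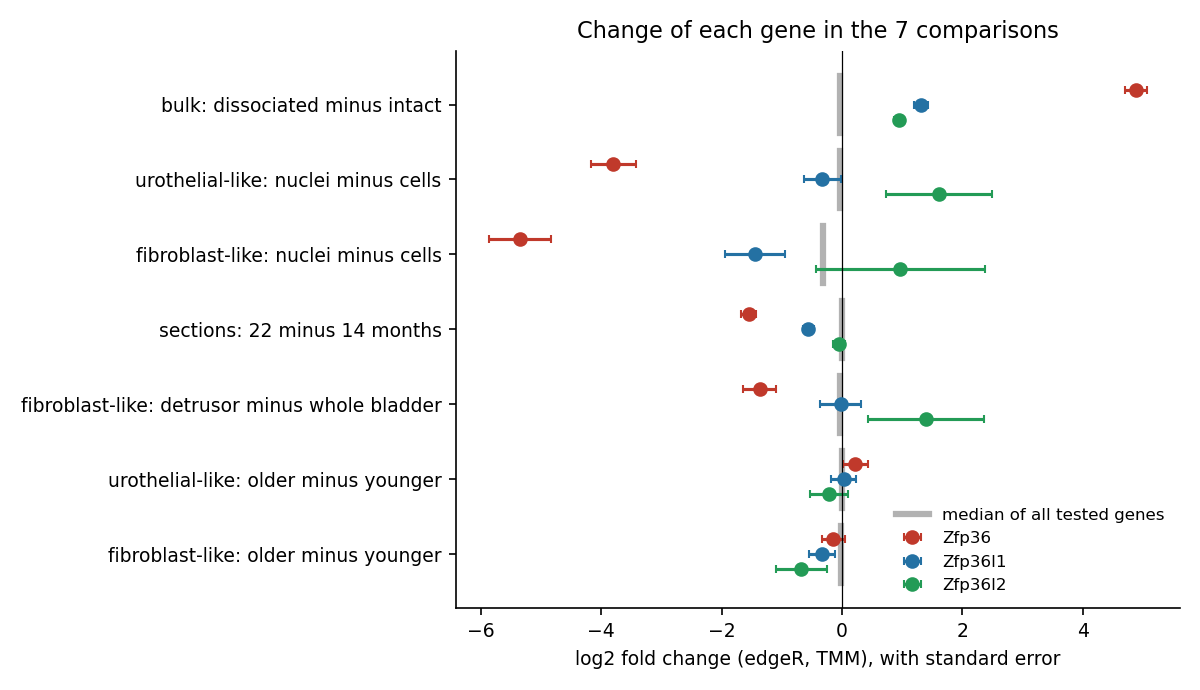
Log2 fold change of each gene with its standard error in the 7 comparisons (edgeR, TMM), with the median of all tested genes as a grey bar. Zfp36 runs from −5.35 in fibroblast-like nuclei to 4.88 in dissociated bulk libraries, and the direction of Zfp36l1 in urothelial-like nuclei turns to 0.84 by library size alone, which moves the median of all genes to 1.12, while relative to the median it is −0.29 and −0.28.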

How the data were processed

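Gene counts of 6 bulk libraries and UMI counts of 12 droplet and section libraries were used as the authors deposited them. The submitters' processing notes name mm10, bcl2fastq, Cell Ranger, Space Ranger, Subread and featureCounts, with no versions or roles. The members and the gene lists were chosen with earlier results of these data known.

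Barcodes and spots needed 500 UMIs, and barcodes of droplet libraries at most 20% mitochondrial UMIs. The top 0.8% of doublet scores per 1000 barcodes were removed from droplet libraries. Cells were clustered per library (scanpy 1.11.5, Leiden resolution 1) and clusters named from marker lists; the score against other clusters that a name required was set after clusters were seen. Counts were summed per library and class of at least 50 cells, over genes common to the libraries of each contrast without mitochondrial genes. The sums were tested with edgeR 4.0.16 (quasi-likelihood, TMM, filterByExpr, two-sided, Benjamini-Hochberg over all genes), a procedure tested on simulated data. The simulation gave all genes a common spread, with equal numbers of rises and falls. It did not cover the scaling shifts seen between nuclei and cells. Levels in UMI CPM were taken over genes common to all 12 droplet and section libraries. For edgeR, the SE is the absolute log2 difference divided by the square root of the quasi-likelihood F statistic. It comes from the same fit as the p-value. DESeq2 1.42.0 was an alternative. Section spots were summed per section.

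Deviations of same-numbered bulk libraries gave r = 0.188, 0.330 and −0.071, the second the highest of all pairs of an intact and a dissociated library. These few values cannot settle whether the numbers mark pairs, and no pairing was used in the main fit. Besides the members, each list's 2 called genes with the largest rise and 2 with the largest fall and a mean of at least 5 CPM could be named, and the 5 genes most like each member with a mean of at least 20 CPM. Bulk values were fitted without other samples. Exact binomial intervals cover counting error only.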

Additional observations from a re-analysis of the deposited data

How the results depend on the processing

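The bulk, section and detrusor differences of the members kept their sign in every alternative run, except Zfp36l1 in detrusor libraries (−0.35 to 0.29 with 1 library left out) and Zfp36l2 in sections (−0.13 to 0.04). By library size alone the bulk difference of Zfp36l2 was 0.84, the urothelial-like nuclei differences of Zfp36, Zfp36l1 and Zfp36l2 were −2.66, 0.84 and 2.93, and the fibroblast-like ones of Zfp36 and Zfp36l1 were −4.45 and −0.52, with the median of all genes moving alike. The fibroblast-like nuclei difference of Zfp36 was −5.13 with relative log expression scaling, −5.13 in DESeq2, −5.48 without a filter on low counts, −5.19 against the 12-month cell libraries and −5.18 against the 3 mixed-sex ones. The call of Zfp36 in detrusor libraries was lost with any 1 library left out (−1.53 to −1.17), and its section difference was −1.72 to −1.40 with 1 section left out. In age, the urothelial-like Zfp36 difference was 0.22 with all libraries, −0.06 without the 22-month males, −0.05 without the 3-month males and 0.59 without the 24-month library, with no call.

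Counts of called genes moved more. Against the 3 mixed-sex libraries 7425 genes passed in urothelial-like nuclei, 4742 in fibroblast-like nuclei and 1489 in detrusor libraries. Leaving out 1 library gave 1932 to 3112 in fibroblast-like nuclei (1932 without the first 12-month library) and 54 to 683 in detrusor libraries (54 without the detrusor-only, 154 without the first 12-month, 211 without the 24-month, 231 without the 22-month male and 296 without the 3-month male library), where DESeq2 called 2036. With age, urothelial-like counts were 72 with no filter, 1 in the 3 mixed-sex libraries and 1 to 58 with 1 library left out (58 without the first 12-month and 25 without the 24-month library). Fibroblast-like counts were 0 with relative log expression scaling, 8 in DESeq2, 29 with no filter, 0 without the sex term, 9 in the 3 mixed-sex libraries, 0 with doublets kept, 0 at 1000 UMIs per cell, 0 at Leiden resolution 2 and 0 to 165 with 1 library left out (165 without the 24-month library). In sections 38 passed by library size, 420 in DESeq2, 287 with no filter and 0 to 300 with 1 section left out (300 without the first 22-month section, a lone section then assumed to vary like the others). The cause was not tested. The mixed-sex alternative for age was chosen after seeing the data.

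Shares of cells with a UMI moved with depth, and thinning to 2000 UMIs left out cells with fewer. For Zfp36 they were 81.5% unthinned and 72.0% at 2000 UMIs in fibroblast-like, and 73.7% and 39.1% in urothelial-like cells. For Zfp36l1 they were 77.7% and 63.8%, and 68.0% and 30.01%. For Zfp36l2 they were 25.9% and 11.6% in fibroblast-like, and 28.4% and 7.48% in urothelial-like cells. With the replicate block 10011 bulk genes passed, against 9798 without it. Not every bulk library correlated best with the one of its own number.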
